A study of Mus musculus with 12 samples.

Results

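The genes described here encode the translation initiation factors of mouse C2C12 myotubes. They were taken by their symbols, as all genes of the count table named Eif1 to Eif6 with any suffix, without the eIF2α kinases (Eif2ak), the eIF4E-binding proteins (Eif4ebp) and pseudogenes. This gave 46 of the 15113 genes listed, of which 8 encode subunits of eIF2 or eIF2B, 14 subunits of eIF3, 12 factors of the eIF4 family, and 12 the remaining factors (eIF1, eIF1A, eIF2A, eIF2D, eIF5, eIF5A, eIF5B and eIF6). The rule used symbols and no measured value, although earlier results of these data were known when it was chosen. All 46 genes had enough counts to be tested, and the lowest count of any of them in any library was 4 reads.

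C2C12 is a mouse muscle precursor line, and the cells had been differentiated in low-serum medium for 5 days before treatment. The BAM15 group (6 libraries) received 20 µM BAM15, a mitochondrial uncoupler, in DMSO for 16 h, and the vehicle group (6 libraries) received DMSO alone for the same time. Both groups therefore come from 1 cell line without a genetic change, and nothing in the labels says that the 6 libraries of a group came from separate cultures, so that p-values measure the spread between these libraries, which may be technical. The passage numbers of the labels differ from those of the methods.

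Translation of most messenger RNAs begins when eIF2, bound to GTP, brings the initiator methionine tRNA to the small ribosomal subunit, together with eIF1, eIF1A, eIF3 and eIF5. The eIF4 factors bind the cap and unwind the leader of the messenger RNA, so that the loaded subunit can attach and scan to the start codon. After each round eIF2B exchanges the GDP on eIF2 for GTP, and this step is held back when stress kinases phosphorylate the α subunit of eIF2. In muscle, as elsewhere, the eIF4E-binding proteins, which are controlled by mTORC1, hold the cap-binding factor eIF4E away from the scaffold eIF4G.

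The libraries were made with QuantSeq, which reads the 3′ end of polyadenylated RNA, and the total number of reads counted on genes was 13983725 to 18866728 per library. All 10 myotube markers had a row, with a summed normalized count of 389006 to 445279 in vehicle and 360962 to 493747 in BAM15 libraries. Among them Acta1 (0.46 on the log2 scale) and Myog (0.37) rose and Mymk (-0.27) and Ckm (-0.17) fell by edgeR, and the other 6 did not pass the test. Markers of other cells also moved with treatment. The 6 markers of undifferentiated or cycling myoblasts summed to 5412 to 6222 in vehicle and 2574 to 2958 in BAM15 libraries. Of these, 5 were lower and Myf5 was higher (1.69 on the log2 scale). The 3 listed of 4 fibroblast markers summed to 4057 to 4513 and 2395 to 2974. Nearly all of this sum was Dcn (4017 to 4473 and 2372 to 2943). Pdgfra was not called (-0.34, edgeR adjusted p = 0.150), and Lum was at most 3.82 in any library. Of 3 macrophage markers only Cd68 had a row, at 9.74 to 18.5 in vehicle and 52.5 to 75.6 in BAM15 libraries, while Ptprc and Adgre1 had none. Neither of the 2 endothelial markers had a row, and of 3 adipocyte markers only Fabp4 did, at 0 to 1.81 in vehicle and 0 to 2.91 in BAM15 libraries. The part of these cells in the results was not tested, and in bulk RNA fewer cells of a type and less RNA per cell cannot be told apart. BAM15 libraries 4 to 6 stood apart from BAM15 libraries 1 to 3, with 13.5% of all tested genes higher and 10.7% lower in the former, whereas 0 genes were called between the vehicle libraries of these numbers by edgeR's quasi-likelihood test, where 696 genes had an unadjusted p below 0.05. No label describes the numbers as a batch, and values within each set of numbers are given below for part of the genes.

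Initiation factor transcripts rose more often than they fell with BAM15. In all, 16 of the 46 genes were higher, 1 was lower and 29 did not pass the test, at a Benjamini-Hochberg adjusted p below 0.01 in the quasi-likelihood test of edgeR. Over all 12730 genes tested, 22.0% were higher and 20.3% lower. The 46 genes had a median of 0.23 on the log2 scale, and all genes tested one of 0.02. The estimate was above 0 for 40 of the 46 genes. The thresholds of the study were a change of more than 2-fold, this adjusted p and a base mean above 50 normalized counts. Only Eif1ad passed all of them, where 7.28% of all genes did, 3.70% higher and 3.58% lower. The estimate of Eif4a2 was also above 2-fold (2.15-fold), but this gene did not pass the test (edgeR adjusted p = 0.0151). For 13 genes every BAM15 library lay above every vehicle library, and for 1 gene every one lay below, where the shares of all genes were 17.1% and 17.0%.

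**Figure D1:**
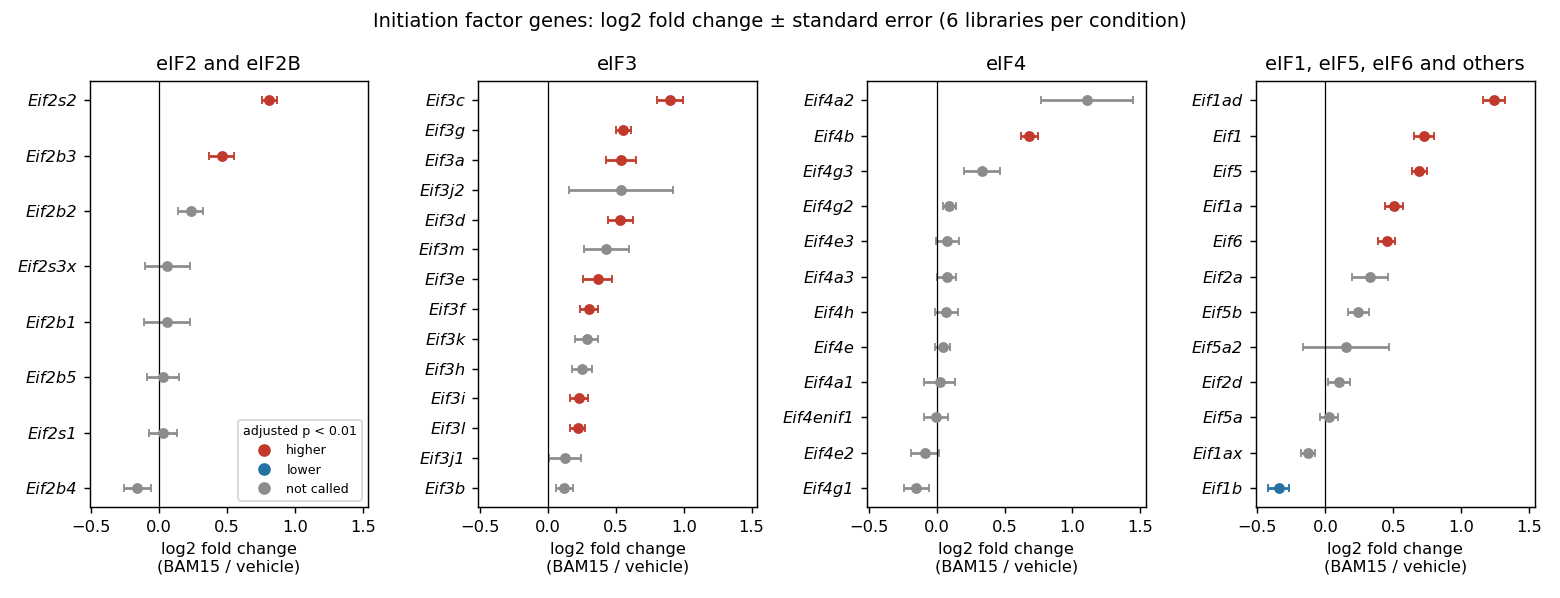
Log2 fold change of BAM15 over vehicle (horizontal axis) of each of the 46 initiation factor genes, by group, with bars of 1 standard error and 6 libraries per condition. Red marks genes called higher and blue genes called lower at an adjusted p below 0.01. All 14 eIF3 genes lie above 0, whereas the eIF4 genes cluster around 0 except for Eif4b, Eif4a2 and Eif4g3.

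The promoters of the genes with the largest rises are shown first, because members that move together can be read beside their upstream sequence. RefSeq gave a promoter window on GRCm38.p6 for 37 of the 46 genes, and Eif1a, Eif2b3, Eif3e, Eif3h, Eif3i, Eif3j2, Eif4e3, Eif4g2 and Eif6 had no entry. The 4 called rises that were largest among the genes with an entry were those of Eif1ad (chr19:5366563-5366740, plus strand), Eif3c (chr7:126566412-126566616, minus strand), Eif2s2 (chr2:154892936-154893156, minus strand) and Eif1 (chr11:100319699-100319884, plus strand). Each sequence runs 5′ to 3′ towards the gene and ends before the first annotated base of the transcript. Capitals mark CTTCCGG, which is the ETS site CCGGAAG on the other strand, in Eif1ad and Eif3c, and the CCAAT box in Eif1. The start of Eif3c differs between RefSeq and GENCODE, and a second ETS site of its RefSeq window lies between both starts, outside the printed stretch. None of the searched motifs lies in the Eif2s2 sequence. In the GENCODE M21 annotation of GRCm38 the genes themselves lie at chr19:5366741-5371526 (Eif1ad), chr7:126546455-126566411 (Eif3c), chr2:154871410-154892935 (Eif2s2) and chr11:100319885-100322096 (Eif1).
Eif1ad: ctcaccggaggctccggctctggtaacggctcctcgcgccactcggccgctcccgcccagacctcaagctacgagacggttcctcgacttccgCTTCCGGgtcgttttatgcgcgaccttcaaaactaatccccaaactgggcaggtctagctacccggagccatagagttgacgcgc
Eif3c: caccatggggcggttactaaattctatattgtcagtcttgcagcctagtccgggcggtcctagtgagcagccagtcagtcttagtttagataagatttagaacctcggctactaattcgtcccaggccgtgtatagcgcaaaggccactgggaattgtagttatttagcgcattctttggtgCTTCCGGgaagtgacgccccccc
Eif2s2: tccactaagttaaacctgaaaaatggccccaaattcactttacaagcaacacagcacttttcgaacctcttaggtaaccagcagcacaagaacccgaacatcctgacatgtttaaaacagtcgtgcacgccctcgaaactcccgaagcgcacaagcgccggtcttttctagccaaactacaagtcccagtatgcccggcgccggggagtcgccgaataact
Eif1: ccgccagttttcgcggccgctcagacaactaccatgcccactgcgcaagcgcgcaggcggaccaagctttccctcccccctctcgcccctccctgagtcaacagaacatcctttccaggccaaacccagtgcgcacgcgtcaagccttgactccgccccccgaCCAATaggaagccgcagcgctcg

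Motifs were searched in the 250 bases before the RefSeq start, on both strands. The ETS site CCGGAAG was in 11 of the 37 promoters (29.7%) and in 7.83% of those of 27025 genes. Of these 11 genes, 5 were called higher (Eif1ad, Eif3c, Eif3d, Eif3g and Eif3l), 1 lower (Eif1b) and 5 were not called, and of all 37 genes with an entry 11 were called higher, 1 lower and 25 were not called. CACGTG, the E-box that MYC and MITF family factors can bind, was in 9 promoters (24.3%) and in 6.86% of all, and of its 9 genes 1 was called higher (Eif3f) and 1 lower (Eif1b). TGATGNAA, the element of ATF4 with C/EBP factors, was in 1 promoter (2.70%, that of Eif2s3x, which was not called) and in 3.91% of all. CCAAT was in 12 promoters (32.4%, against 37.5% of all), with 3 of its genes called higher (Eif1, Eif3f and Eif3l), and neither the full cyclic AMP response element TGACGTCA (1.77% of all) nor TATATAA (3.60% of all) was in any of the 37. The 27025 genes are all those with a promoter entry, whether or not they were tested in these cells. Their shares thus come from a set unlike the 37 genes, all of which were tested. A match describes the letters only, and binding was not measured here.

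Among the subunits of eIF2 and its exchange factor eIF2B, 2 of 8 genes rose (25.0%, against 22.0% of all genes), Eif2s2 and Eif2b3, and none fell. Eif2s2, which encodes the β subunit that contacts eIF5 and eIF2B, had 14197 to 16313 normalized counts in the vehicle libraries (median 15979), and 25597 to 29033 in the BAM15 libraries (median 27834). Every BAM15 library was far above every vehicle library, with little spread within either group. This was a log2 fold change of 0.81 ± 0.05 (SE, 1.75-fold; edgeR adjusted p = 7.98e-09), and it was 0.81 in libraries 1 to 3 and 0.79 in libraries 4 to 6.

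The genes of the partner subunits of eIF2 did not pass the test. Eif2s1, which encodes the α subunit phosphorylated by the stress kinases, lay between 1142 and 1408 in vehicle (median 1285) and between 989 and 1604 in BAM15 libraries (median 1281). The groups overlapped, and BAM15 libraries held both the lowest and the highest values. Its log2 fold change was 0.03 ± 0.10 (SE, edgeR adjusted p = 0.849), with -0.20 in libraries 1 to 3 and 0.21 in libraries 4 to 6. For Eif2s3x, the X-linked gene of the γ subunit that holds GTP and the initiator tRNA, the log2 fold change was 0.06.

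Of the eIF2B genes, Eif2b3 (γ subunit) rose by 0.46 on the log2 scale (edgeR adjusted p = 6.67e-04), without overlap between the groups. Within libraries 4 to 6 alone it was not called (0.32, edgeR adjusted p = 0.0220). Eif2b5, the catalytic ε subunit, ranged from 1873 to 2346 in vehicle (median 2053) and from 1587 to 2523 in BAM15 libraries (median 2215). BAM15 libraries again held both extremes, and the log2 fold change was 0.03 ± 0.12 (SE, edgeR adjusted p = 0.855). The regulatory subunit genes Eif2b1, Eif2b2 and Eif2b4 were at 0.06, 0.23 and -0.16. Eif2b2 passed the test within libraries 1 to 3 (0.40, edgeR adjusted p = 8.11e-06) and when BAM15 library 5 was left out (edgeR adjusted p = 0.00624), but in libraries 4 to 6 it was at 0.02 (edgeR adjusted p = 0.869).

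Within eIF3, the largest initiation factor and a scaffold on the small ribosomal subunit, 8 of 14 genes rose (57.1%, against 22.0% of all genes). None fell, where 20.3% of all genes did, and 6 did not pass the test. All 14 estimates were above 0 and their median was 0.33. For 5 of the 14 every BAM15 library lay above every vehicle library, where 17.1% of all genes did so. The estimates ranged from 0.12 for Eif3b to 0.90 for Eif3c on the log2 scale. No eIF3 estimate turned below 0 under the other scalings.

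Eif3c, a core subunit that binds eIF1 and eIF5, had 7391 to 8590 normalized counts in vehicle (median 8110) and 11882 to 17278 in BAM15 libraries (median 15928). All BAM15 libraries were above all vehicle libraries, and BAM15 libraries 5 and 6 were the lowest of their group. Its log2 fold change was 0.90 ± 0.10 (SE, 1.87-fold; edgeR adjusted p = 1.34e-06). Eif3a, the largest subunit and an organizer of the complex, ranged from 15977 to 18984 in vehicle (median 18081) and from 19219 to 30146 in BAM15 libraries (median 28632). The groups did not overlap, although BAM15 libraries 5 and 6 were close to the vehicle libraries. Its log2 fold change was 0.54 ± 0.11 (SE, edgeR adjusted p = 7.85e-04), and in libraries 4 to 6 alone it was 0.34 and not called (edgeR adjusted p = 0.0699).

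Eif3g, an RNA-binding subunit that joins eIF3b and eIF3i in a mobile module, had 2164 to 2439 normalized counts in vehicle (median 2284) and 3165 to 3651 in BAM15 libraries (median 3321). There was a clear gap between the groups, and the log2 fold change was 0.56 ± 0.05 (SE, edgeR adjusted p = 4.76e-07). Eif3d, a subunit that can itself bind the cap of some messenger RNAs, ranged from 4092 to 4996 in vehicle (median 4432) and from 5340 to 7764 in BAM15 libraries (median 6511). No BAM15 library fell within the vehicle range, and the 3 BAM15 libraries numbered 4 to 6 were the lowest. On the log2 scale the change was 0.53 ± 0.09 (SE, edgeR adjusted p = 1.90e-04).

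The other 4 eIF3 genes called rose less. Eif3l, without overlap between groups, was at 0.22 on the log2 scale (edgeR adjusted p = 0.00347). It was lost within libraries 4 to 6 (edgeR adjusted p = 0.232) and without vehicle library 6 (edgeR adjusted p = 0.0113). Scaling by library size alone also lost it (0.16, edgeR adjusted p = 0.0135). Eif3f, at 0.30 (edgeR adjusted p = 0.00148), overlapped between groups and was not called within libraries 4 to 6 (edgeR adjusted p = 0.290). Eif3e, at 0.37 (edgeR adjusted p = 0.00886), and Eif3i, at 0.23 (edgeR adjusted p = 0.00845), lay just inside the threshold with overlapping groups, and each was lost under 14 of 24 alternatives. Eif3e was lost when BAM15 library 4, 5 or 6 or any vehicle library was left out, and Eif3i when BAM15 library 3, 4, 5 or 6 or any vehicle library except 5 was, with adjusted p up to 0.0215 for Eif3e and 0.0245 for Eif3i.

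Of the 6 eIF3 genes not called, Eif3k (0.29, edgeR adjusted p = 0.0104) and Eif3h (0.25, edgeR adjusted p = 0.0107) lay just outside the threshold. Both were called when BAM15 library 4, 5 or 6 was left out. The edgeR adjusted p was then 0.00226 to 0.00859 for Eif3k and 0.00198 to 0.00977 for Eif3h. On all libraries, DESeq2's Wald test called both (adjusted p = 0.00772 for Eif3k and 0.00681 for Eif3h). So did edgeR with a block for the 2 sets of numbers, and with at least 10 counts in every library. In libraries 1 to 3, Eif3k and Eif3h were at 0.41 and 0.39. In libraries 4 to 6 they were at 0.13 and 0.08 and not called (edgeR adjusted p = 0.202 and 0.408). Eif3m was at 0.43 (edgeR adjusted p = 0.0411) and was called without BAM15 library 2 (edgeR adjusted p = 0.00814). Without BAM15 library 5 it was at 0.27 (edgeR adjusted p = 0.0688), and it was at 0.08 in libraries 1 to 3 (edgeR adjusted p = 0.414) and 0.68 in libraries 4 to 6. The remaining estimates were 0.12 for Eif3b, the scaffold of the mobile module, 0.13 for Eif3j1 and 0.54 ± 0.38 (SE) for Eif3j2, whose gene products help in ribosome recycling. Several eIF3 genes share sequence with other genes near the 3′ end, where QuantSeq reads fall, so that their counts are uncertain. In the last 400 bases of the transcript, 85.8% of the 50-base windows of Eif3j2 also occurred in other genes (Eif3j1), as did 42.7% of those of Eif3m, 26.8% of Eif3h, 24.5% of Eif3e and 2.56% of Eif3i. Eif3m and Eif3j1 also overlap exons of a gene on the opposite strand, Ccdc73 and Spg11, and the strand used for counting is not given in the sources used here.

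In the eIF4 group only 1 of 12 genes rose (8.33%, against 22.0% of all genes), Eif4b. None fell, where 20.3% of all genes did, and the median log2 fold change was 0.07. Eif4b stimulates the helicase eIF4A and is a substrate of the S6 kinases. It had 2370 to 2538 normalized counts in vehicle (median 2439) and 3422 to 4282 in BAM15 libraries (median 3946). The groups were well apart, and the log2 fold change was 0.68 ± 0.06 (SE, 1.60-fold; edgeR adjusted p = 2.62e-07).

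The genes of the 3 components of the cap-binding complex eIF4F did not pass the test. Eif4e, the cap-binding protein, ranged from 1313 to 1510 in vehicle (median 1413) and from 1320 to 1549 in BAM15 libraries (median 1459). The ranges almost coincided, and the log2 fold change was 0.05 ± 0.05 (SE, edgeR adjusted p = 0.506). Eif4g1, the scaffold that joins the cap-binding protein to eIF3, ranged from 10452 to 11971 in vehicle (median 11478) and from 8284 to 12186 in BAM15 libraries (median 10820). The lowest values were those of BAM15 libraries 5 and 6, and the log2 fold change was -0.15 ± 0.09 (SE, edgeR adjusted p = 0.178). Eif4a1, the main RNA helicase of the complex, ranged from 1879 to 2181 in vehicle (median 1994) and from 1551 to 2530 in BAM15 libraries (median 2038). BAM15 libraries 1 and 2 were below and 5 and 6 above all vehicle libraries. Its log2 fold change was 0.02 ± 0.11 (SE, edgeR adjusted p = 0.883).

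The second helicase gene, Eif4a2, had the highest estimate of the group but was not called. It ranged from 275 to 408 in vehicle (median 353) and from 384 to 1677 in BAM15 libraries (median 541). BAM15 library 2, at 384, fell inside the vehicle range, and libraries 5 and 6, at 1677 and 980, were far above all others. The log2 fold change was 1.11 ± 0.34 (SE, edgeR adjusted p = 0.0151), with 0.35 in libraries 1 to 3 and 1.57 in libraries 4 to 6. It was called by DESeq2's Wald test (adjusted p = 0.00552), without robust moderation in edgeR (adjusted p = 0.00785) and without BAM15 library 2 (edgeR adjusted p = 0.00815). Without BAM15 library 5 the estimate dropped to 0.71, under a 2-fold change (edgeR adjusted p = 0.0164). Among the others, Eif4g3, a paralog of Eif4g1, was at 0.33 (edgeR adjusted p = 0.0451), and Eif4g2, which lacks the part that binds eIF4E, at 0.09. Eif4h, a cofactor of eIF4A, and Eif4a3, a helicase of the exon junction complex, were at 0.07 and 0.08. In the last 400 bases of Eif4a3, 23.9% of the windows also occurred in other genes, so that its count is uncertain. Eif4e2, a cap-binding repressor, was at -0.09, Eif4e3 at 0.08 and Eif4enif1, the carrier of eIF4E into the nucleus, at -0.0046.

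**Figure D2:**
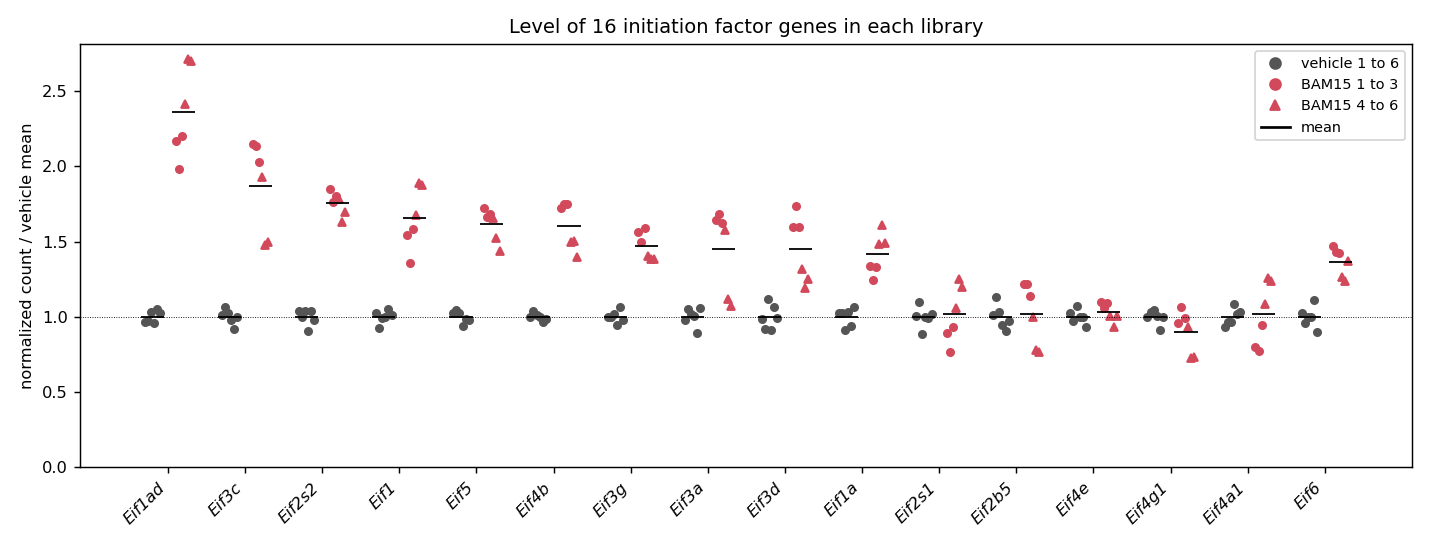
Normalized count of 16 initiation factor genes in each library, divided by the gene's vehicle mean (vertical axis, linear from 0), with vehicle libraries in grey, BAM15 libraries 1 to 3 as red circles, 4 to 6 as red triangles, and lines at the means. For Eif1ad, Eif3c, Eif2s2, Eif1, Eif5, Eif4b, Eif3g, Eif3a, Eif3d, Eif1a and Eif6 every BAM15 library is above every vehicle library, and for Eif2s1, Eif2b5, Eif4e, Eif4g1 and Eif4a1 the groups overlap.

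Among the 12 remaining factors, 5 genes rose (Eif1ad, Eif1, Eif5, Eif1a and Eif6), 1 fell (Eif1b) and 6 did not pass the test. Thus 41.7% were higher and 8.33% lower, against 22.0% and 20.3% of all genes, and the median was 0.28. In each of the 6 called genes the groups did not overlap, where 17.1% of all genes were higher and 17.0% lower without overlap. Eif1ad encodes a protein with an eIF1A-like domain that takes part in the late maturation of the small ribosomal subunit. It had 501 to 547 normalized counts in vehicle (median 521) and 1036 to 1416 in BAM15 libraries (median 1205). No other of the 46 genes was past all thresholds, and the log2 fold change was 1.24 ± 0.08 (SE, 2.36-fold; edgeR adjusted p = 4.40e-09). It was 1.10 in libraries 1 to 3 and 1.36 in libraries 4 to 6.

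The genes of 3 factors that act in scanning and start codon selection rose. Eif1, which keeps the scanning ribosome from starting at wrong codons, ranged from 6232 to 7066 in vehicle (median 6766) and from 9128 to 12727 in BAM15 libraries (median 10968). All BAM15 libraries were higher, and the log2 fold change was 0.73 ± 0.08 (SE, 1.65-fold; edgeR adjusted p = 1.16e-06). It was 0.60 in libraries 1 to 3 and 0.82 in libraries 4 to 6. Eif5 (chr12:111538016-111546752), which triggers GTP hydrolysis by eIF2 at the start codon, ranged from 5863 to 6530 in vehicle (median 6275) and from 8976 to 10775 in BAM15 libraries (median 10381). The log2 fold change of this gene was 0.69 ± 0.06 (SE, 1.61-fold; edgeR adjusted p = 6.25e-08), again with a gap between the groups. Eif1a, one of the genes of eIF1A, which helps scanning, ranged from 1538 to 1800 in vehicle (median 1736) and from 2108 to 2726 in BAM15 libraries (median 2386). Its log2 fold change was 0.50 ± 0.07 (SE, edgeR adjusted p = 1.58e-05).

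The paralog of Eif1 fell, and that of Eif1a did not pass the test. Eif1b ranged from 1814 to 2183 in vehicle (median 1940) and from 1272 to 1692 in BAM15 libraries (median 1643). All BAM15 libraries were below all vehicle libraries, and the log2 fold change was -0.34 ± 0.08 (SE, edgeR adjusted p = 0.00163). Eif1ax, the X-linked gene of eIF1A, was at -0.13 (edgeR adjusted p = 0.0516). Under scaling by library size alone, without composition factors, it was called lower (edgeR adjusted p = 0.00115).

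Of the factors that act on subunit joining, Eif6, which holds the large subunit back from joining early, ranged from 1548 to 1908 in vehicle (median 1716) and from 2130 to 2525 in BAM15 libraries (median 2401). The groups were apart, and the log2 fold change was 0.45 ± 0.06 (SE, edgeR adjusted p = 1.95e-05). Eif5b, the GTPase that joins the subunits, was at 0.24 (edgeR adjusted p = 0.0138). It was called without BAM15 library 5 or 6 (edgeR adjusted p = 0.00177 and 0.00320). On all libraries, DESeq2's Wald test (adjusted p = 0.00764) and edgeR with a block for the 2 sets of numbers also called it. In libraries 1 to 3 it was at 0.33, and in libraries 4 to 6 at 0.13 and not called (edgeR adjusted p = 0.274). Its exons overlap 234 bases of Rev1 on the opposite strand. Eif5a and Eif5a2, whose hypusine-modified products act mainly in elongation, were at 0.03 and 0.15, and Eif5a2 had at most 28.2 normalized counts in any library. Eif2a and Eif2d, which can deliver initiator tRNA without eIF2, were at 0.33 (edgeR adjusted p = 0.0468) and 0.10.

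Counted as a share of all reads on genes, the 46 transcripts together took 1.03% ± 0.01 (SD, n = 6) in vehicle and 1.28% ± 0.02 (SD, n = 6) in BAM15 libraries. The groups did not overlap, with 1.02% to 1.05% against 1.26% to 1.31%. The eIF2 and eIF2B genes took 0.142% to 0.154% in vehicle and 0.211% to 0.219% in BAM15 libraries, and the eIF3 genes 0.363% to 0.377% and 0.452% to 0.513%. By contrast the eIF4 genes overlapped, at 0.283% to 0.290% and 0.277% to 0.299%. The remaining factors took 0.222% to 0.231% and 0.268% to 0.298%. Of the summed rise in normalized counts over the 46 genes, 53.3% came from Eif2s2, Eif3a and Eif3c, so the share describes mainly these abundant transcripts. These shares were not tested. PCR reads without molecular identifiers are not independent molecules, and the depth covers counting error only.

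**Figure D3:**
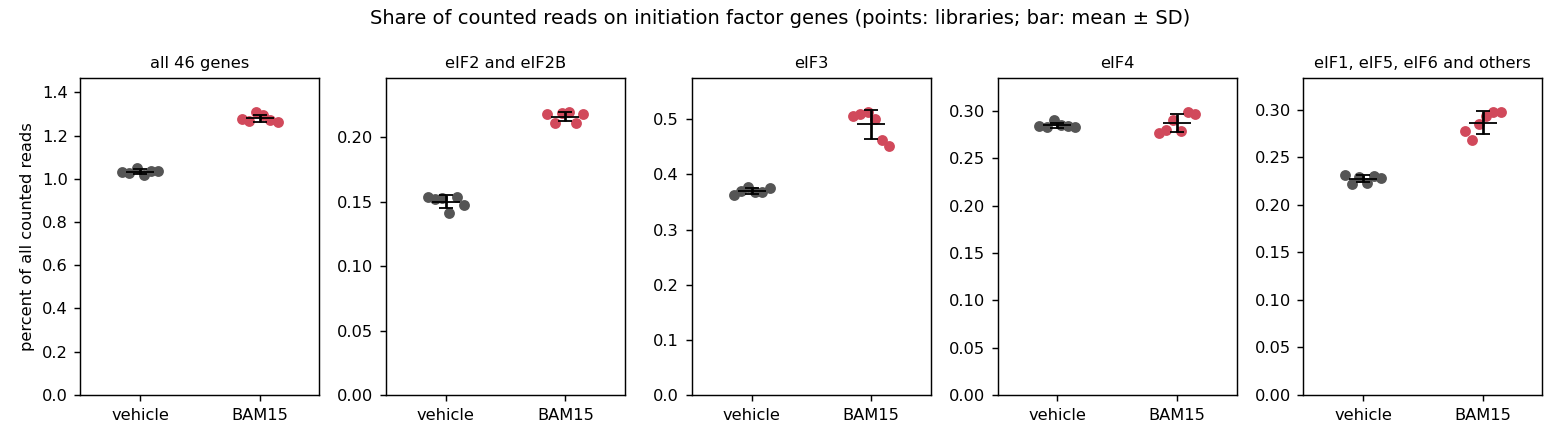
Percent of all counted reads that fell on the initiation factor genes (vertical axes, from 0 and with a scale of their own in each panel), for all 46 genes and for each group, with 1 point per library and a bar for the mean ± SD. BAM15 libraries are above vehicle libraries in every panel except that of eIF4, where 0.277% to 0.299% overlaps 0.283% to 0.290%.

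Within the BAM15 group the initiation factor genes differed between libraries 4 to 6 and 1 to 3. By edgeR's quasi-likelihood test, 11 of the 46 genes were higher and 11 lower in libraries 4 to 6, where 13.5% and 10.7% of all genes were. The eIF3 genes went both ways, with 4 higher and 4 lower. Eif3j2 was higher by 1.70, Eif3m by 0.71 and Eif3e by 0.47 on the log2 scale, and Eif3d was at -0.39, Eif3c at -0.37, Eif3k at -0.35 and Eif3h at -0.32. In the eIF2 group Eif2b1 (0.73) and Eif2s1 (0.43) were higher, and Eif2b5 (-0.49), Eif2b2 (-0.41) and Eif2b3 (-0.34) lower. In the eIF4 group Eif4a1 (0.51) and Eif4h (0.34) were higher, and Eif4e2 (-0.45), Eif4g1 (-0.34), Eif4a3 (-0.26) and Eif4b (-0.24) lower. Subunits of the same complex thus differed in opposite directions between libraries of 1 condition. Among the remaining factors Eif1ad (0.30), Eif1 (0.28) and Eif5a (0.26) were higher in BAM15 libraries 4 to 6, and none was lower. Between the vehicle libraries of the same numbers 0 of the 46 genes were called, and 3 had an unadjusted p below 0.05, where 5.47% of all genes had.

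The response to BAM15 was also taken within each set. In libraries 1 to 3, 19 genes were higher and 1 lower (22.2% of all genes in either direction), and in libraries 4 to 6, 14 were higher and 1 lower (16.5% and 16.7% of all). There were 10 of the 46 genes called higher in both sets and over all libraries, where 12.4% of all genes were, with 3 of these in eIF3, 1 in eIF2 and eIF2B, 1 in eIF4 and 5 among the remaining factors. Tested directly, the response differed between the sets in 0 of the 46 genes at an adjusted p below 0.01 by edgeR. It did so in 0 of all 12730 genes as well, so this count says nothing particular about the members. Of the 46 genes, 25 had an unadjusted p below 0.05, where 26.0% of all genes had. At an adjusted p below 0.05 it differed in 3 genes, all of them in eIF3, where 2.66% of all genes differed. These were Eif3e, Eif3f and Eif3j2, with responses of 0.12, 0.49 and -0.30 in libraries 1 to 3 and of 0.56, 0.10 and 0.94 in libraries 4 to 6.

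**Figure D4:**
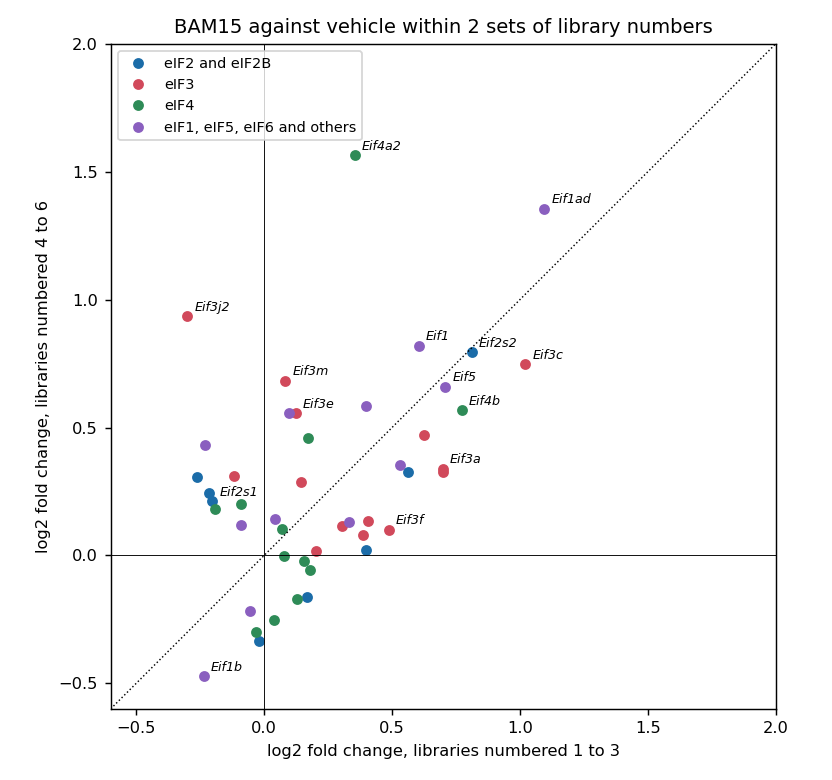
Log2 fold change of BAM15 over vehicle in libraries 1 to 3 (horizontal axis) and in libraries 4 to 6 (vertical axis) for each of the 46 genes, coloured by group, with a dotted line where both are equal. Eif1ad, Eif2s2, Eif5, Eif1 and Eif4b lie near the line at positive values, and Eif4a2 (0.35 and 1.57) and Eif3j2 (-0.30 and 0.94) lie far above it.

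The regulators and cofactors that act on these factors were read from a list of 36 genes, of which 34 were tested. Of these, 11 rose (32.4%, against 22.0% of all genes), 5 fell (14.7%, against 20.3%) and 18 did not pass the test, with a median of 0.10. Past all thresholds of the study were 3 of them, where 7.28% of all genes were. Ppp1r15a, the stress-induced subunit of the phosphatase that removes the phosphate from eIF2α, had 114 to 172 normalized counts in vehicle (median 147) and 1191 to 2921 in BAM15 libraries (median 1647). Ppp1r15b, its constitutive counterpart, had 296 to 421 (median 372) and 576 to 1033 (median 776). Eif4ebp1, which holds eIF4E away from eIF4G, had 2993 to 3450 (median 3264) and 10472 to 11967 (median 11642). None of the 3 overlapped between groups, and by edgeR the log2 fold changes were 3.64 (adjusted p = 2.56e-08), 1.10 (adjusted p = 2.92e-06) and 1.81 (adjusted p = 1.35e-12).

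The next regulators by adjusted p moved in both directions. Pdcd4, an inhibitor of eIF4A, was at -0.99 (edgeR adjusted p = 1.30e-08), and Rps6kb1, the S6 kinase that acts on Pdcd4 and eIF4B, at -0.62 (edgeR adjusted p = 5.29e-06). Impact, which restrains the eIF2α kinase GCN2, was at 0.63 (edgeR adjusted p = 3.69e-06), and Pabpc1, the main poly(A)-binding protein, at 0.76 (edgeR adjusted p = 9.78e-06).

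A second list of 29 genes for elongation, termination and recycling gave 27 tested genes, with a median of 0.26. Of the 27, 10 rose (37.0%, against 22.0% of all genes), 1 fell (3.70%, against 20.3%) and 16 did not pass the test. Only Dph5, an enzyme that makes the diphthamide residue of the elongation factor eEF2, was past all thresholds, with 182 to 213 normalized counts in vehicle (median 193) and 367 to 451 in BAM15 libraries (median 402). The groups were apart, and the log2 fold change was 1.05 ± 0.07 (SE, edgeR adjusted p = 7.98e-09). Eef1akmt1, a methyltransferase of eEF1A, was at -0.95 (edgeR adjusted p = 2.50e-08), Eef2kmt, a methyltransferase of eEF2, at 0.81 (edgeR adjusted p = 9.88e-08), Dhps, the first enzyme of hypusine synthesis on eIF5A, at 0.72 (edgeR adjusted p = 1.20e-07) and Eef1b2, an exchange factor subunit of eEF1A, at 0.53 (edgeR adjusted p = 2.13e-07).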

How the data were processed

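The 12 libraries were grouped by their titles. Per the labels and methods, the authors made QuantSeq 3′ libraries (75 bases per read in the methods, 50 in the labels) and used BlueBee software to align and count them, while the submitters' notes name GRCm38 (mm10) and DESeq2 1.22.2. The deposited counts are whole reads per gene without normalization. The deposited normalized signal was found to be these counts divided by 1 size factor per library, within 1e-06 percent. Only the gene symbols given with it were used. The 11 columns of other samples in the tables were not used. For 2293 genes without a symbol, 2260 symbols came from GENCODE M21, which also gave positions and transcript sequences.

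Counts were analysed in R 4.3.3 with edgeR 4.0.16 (filterByExpr by condition, which removed 2383 genes, TMM, robust quasi-likelihood test without covariates), and p-values were adjusted over 12730 genes by the Benjamini-Hochberg method. A gene was called at an adjusted p below 0.01. A normalized count is the count divided by the TMM-scaled library size and multiplied by the mean of these sizes. The standard error is the log2 fold change divided by the square root of F. Calls were also checked with DESeq2 1.42.0, limma-voom 3.58.1, other scalings and filters, blocks, each library left out and each set of numbers alone. On simulated counts of BAM15 against vehicle, 184 of 200 changed genes were recovered among 12632 tested, with 2 false calls. How recovery and false calls depend on the size of the change was not tested, nor was either within each set of library numbers. Every pair of libraries of a group differed by more than sampling noise (chi-square per gene of 4.72 to 78.4).

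Full values are given for members called with a log2 fold change above 0.5 in size and for Eif2s1, Eif2b5, Eif4e, Eif4g1, Eif4a1, Eif1, Eif5 and Eif6. Eif1b, the only member called lower, and Eif4a2 were added after their values were seen. Of the lists of regulators and of elongation and termination factors, the genes past all thresholds and 4 more by adjusted p are named. Members and lists were chosen with earlier results of these data known.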

Additional observations from a re-analysis of the deposited data

Results flagged for a closer look

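In 92 groups of 6 libraries (46 genes in each condition), 4 held 1 library far from the others by Dixon's criterion, which chance alone does in about 1 of 20 groups. Eif3m had 791 normalized counts in vehicle library 5 and 678 to 717 in the other vehicle libraries. Eif4g1 had 10452 in vehicle library 5 and 11415 to 11971 in the others. Eif4g2 had 16577 in vehicle library 2 and 17472 to 17698 in the others. Eif4g3 had 2352 in BAM15 library 5 and 1383 to 1731 in the other BAM15 libraries. None of these 4 genes was called.

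The response to BAM15 differed between libraries 4 to 6 and 1 to 3 for 3 genes by edgeR's interaction test at an adjusted p below 0.05. The difference on the log2 scale was 0.44 for Eif3e (adjusted p = 0.0477), -0.38 for Eif3f (adjusted p = 0.0444) and 1.24 for Eif3j2 (adjusted p = 0.0488). The response of Eif3e was larger and that of Eif3f smaller in libraries 4 to 6. That of Eif3j2, whose 3′ sequence is mostly shared with Eif3j1, was -0.30 in libraries 1 to 3, where it was not called, and 0.94 in libraries 4 to 6.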

How the results depend on the processing

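Of the 16 genes called higher, 10 stayed called in the same direction under all 24 alternatives at the same threshold, as did Eif1b, and none reversed. The number of genes higher was 13 to 18 when 1 library was left out and the number lower was 1. Scaling by library size alone, which moved the median of all genes from 0.02 to -0.04 on the log2 scale, gave 2 genes lower in all, 2 lower among the remaining factors and 5 higher in eIF3. The count past all thresholds was 2 with DESeq2's Wald test, without robust moderation, within libraries 1 to 3 and at an adjusted p below 0.05, and 1 to 2 with 1 library left out (2 without BAM15 library 2). In eIF4 2 genes were higher with DESeq2's Wald test and without robust moderation and 3 at an adjusted p below 0.05, and 1 to 2 with 1 library left out (2 without BAM15 library 2). In eIF3 5 to 9 were higher with 1 library left out (5 without vehicle library 6). Within libraries 4 to 6, 1 gene of eIF2 and eIF2B was higher and 2 elongation and termination factors were lower. The regulators lower were 8 with DESeq2's Wald test, with a block for the 2 sets of numbers and at an adjusted p below 0.05. The causes were not tested.

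Every reversal concerned a gene not called. Within libraries 1 to 3 the log2 fold changes were -0.22 for Eif2b1, -0.20 for Eif2s1, -0.26 for Eif2s3x, -0.12 for Eif3j1, -0.30 for Eif3j2, -0.19 for Eif4a1, -0.089 for Eif4h, -0.092 for Eif5a, -0.23 for Eif5a2, 0.038 for Eif4e2 and 0.13 for Eif4enif1. Within libraries 4 to 6 they were -0.16 for Eif2b5, -0.058 for Eif4a3, -0.021 for Eif4e3 and -0.0028 for Eif4e. With library size alone they were -0.043 for Eif2b5, -0.026 for Eif2s1, -0.028 for Eif4a1, -0.018 for Eif4e and -0.030 for Eif5a. With limma-voom Eif4a1 was at -0.0026 and Eif5a2 at -0.0041, and with at least 10 counts in every library, which removed Eif5a2, Eif4enif1 was at 0.0017. With 1 library left out the values ran from -0.013 to 0.068 for Eif5a, -0.15 to 0.34 for Eif5a2, -0.087 to 0.15 for Eif2b1, -0.028 to 0.098 for Eif2b5, -0.041 to 0.095 for Eif2s1, -0.044 to 0.14 for Eif2s3x, -0.048 to 0.091 for Eif4a1 and -0.055 to 0.042 for Eif4enif1.

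Same-numbered libraries of both conditions deviated together only weakly (r of -0.08 to 0.31 across genes), and 2 of 12 libraries correlated best with their own number, so the numbers were not taken as pairs. A replicate block gave 17 genes higher and 1 lower, and Eif4a1 was at -0.0014.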
